A study of Mus musculus with 46 samples.

Results

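The 8 genes described here are regulators of skeletal muscle formation: the paired-box factors Pax3 and Pax7, the bHLH (basic helix-loop-helix) factors Myf5, Myod1, Myog and Myf6, the fusion protein gene Mymk and the bHLH repressor Msc. They were chosen by name, and all 8 of the 57067 genes counted in either of 2 count tables were found by their symbols. RNA was sequenced from 46 mouse synovial sarcomas, a soft tissue cancer driven by a fusion of SS18 with an SSX gene, and reads were counted per gene, with 1 library per tumor. In every mouse the human fusion was switched on from the Rosa26 locus by a Cre protein (TATCre) injected into a limb of the pup, so recombination was not limited to 1 cell type. Mice of the hSS2 background (SSM2 in the sample titles) expressed SS18::SSX2, and those of hSS1 expressed SS18::SSX1.

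The hSS2 table held 13 control, 8 Pbrm1-fl, 8 Arid1a-fl and 8 Arid1b-fl tumors, and that of hSS1 held 5 control and 4 Pbrm1-fl tumors. Control mice carried the fusion with no floxed subunit gene named in their labels, and the other mice carried in addition floxed Pbrm1, Arid1a or Arid1b, which the same Cre disrupts. The study's methods name both floxed copies (fl/fl). These 3 genes encode subunits of BAF-family chromatin remodeling complexes. Tumors were harvested at morbidity, and the ages of the mice were given only as a range for the whole study, not per tumor. Background and count table cannot be told apart, so levels of hSS2 and hSS1 tumors are set side by side without a test.

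Libraries held 10137668 to 21294657 counts. The level of the targeted gene, in counts-per-million of the library total (CPM), fell from a median of 255.3 in hSS2 control to 99.5 in hSS2 Pbrm1-fl tumors for Pbrm1, and from 496.4 to 252.6 in Arid1a-fl tumors for Arid1a (edgeR quasi-likelihood test, adjusted p = 4.2e-12 and 7.01e-05). Arid1b had medians of 319.1 and 159.8 in hSS2 control and Arid1b-fl tumors (edgeR adjusted p = 0.145), and Pbrm1 had 343.0 and 219.5 in hSS1 control and Pbrm1-fl tumors (edgeR adjusted p = 0.193). In hSS1 Pbrm1-fl, replicate 3 alone had 98.3 CPM of Pbrm1, inside the hSS2 Pbrm1-fl range of 94.1 to 134.1 CPM. The other hSS1 Pbrm1-fl tumors kept 214.7 to 252.9 CPM, below the lowest hSS1 control at 278.2 CPM. The library labelled hSS2 control replicate 9 had 254.1 CPM of Arid1a, inside the Arid1a-fl range of 239.4 to 287.5 CPM and below the 360.6 CPM of the next control tumor, so its Arid1a level goes against its label. The library labelled hSS2 Arid1b-fl replicate 4 had 348.4 CPM of Arid1b, above the control median, and the next highest of that group had 285.4 CPM, above the lowest control at 229.8 CPM, so the Arid1b level does not bear out the label of replicate 4. Mouse numbers in the titles fall into ranges that go with the floxed gene. All hSS2 Pbrm1-fl mice were numbered 2000 or over, all Arid1a-fl mice under 1000 and all Arid1b-fl mice 1000 to under 2000, whereas hSS2 control mice covered these ranges with 4, 5 and 4 tumors.

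During muscle development, Pax3 and Pax7 mark the progenitors and, in the adult, Pax7 marks the satellite cells that repair muscle. Myf5 and Myod1 commit such cells to the muscle lineage, Myog and Myf6 act during and after differentiation into fibers, and Mymk (myomaker) is a membrane protein needed for myoblasts to fuse. Msc (musculin, MyoR) is a bHLH factor known to repress Myod1 activity, and Pax3 and Pax7 also act in neural crest and neural tube, outside muscle.

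The bHLH factors bind the 6-base E-box, CANNTG, which reads the same on both strands, so the promoters of members are shown with each E-box in capitals. RefSeq promoter windows of GRCm38.p6 were at hand for 3 of the 8 members, and each is the 250 bases before the RefSeq start, read 5′ to 3′ on the strand of the gene. The windows are chr1:134289754-134290003 (+) for Myog, chr10:107486135-107486384 (-) for Myf5 and chr4:139832969-139833218 (-) for Pax7.
Myog: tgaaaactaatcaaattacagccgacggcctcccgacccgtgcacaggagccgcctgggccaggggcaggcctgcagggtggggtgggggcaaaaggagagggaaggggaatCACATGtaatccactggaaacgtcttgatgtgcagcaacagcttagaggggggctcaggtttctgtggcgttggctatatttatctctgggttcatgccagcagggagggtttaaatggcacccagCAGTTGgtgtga
Myf5: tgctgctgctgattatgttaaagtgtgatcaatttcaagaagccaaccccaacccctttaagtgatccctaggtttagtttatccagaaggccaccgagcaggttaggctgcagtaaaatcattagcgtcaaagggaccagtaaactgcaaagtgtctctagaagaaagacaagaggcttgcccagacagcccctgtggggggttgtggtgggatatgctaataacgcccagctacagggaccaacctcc
Pax7: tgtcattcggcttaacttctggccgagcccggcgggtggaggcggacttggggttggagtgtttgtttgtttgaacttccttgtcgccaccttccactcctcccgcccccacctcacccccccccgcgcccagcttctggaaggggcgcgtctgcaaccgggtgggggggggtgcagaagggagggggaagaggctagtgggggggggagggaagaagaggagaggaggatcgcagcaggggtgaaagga
Myog, a gene that bHLH factors are known to switch on, had 2 E-boxes, beginning at bases -138 and -12 counted from the RefSeq start. GENCODE M21 starts Myog at 134289989, so the nearer of these lies inside its annotated gene, as does the whole Pax7 window. Neither the Myf5 nor the Pax7 window held an E-box. Of 32851 RefSeq promoters of this length, 66.22% held at least 1 E-box and 31.81% at least 2. The E-box form CAGCTG, which is counted among the CANNTG matches, stood in 13% of promoters and in none of these 3. A match to the MEF2 motif on either strand was found in 2.919% of promoters and in none of the 3, although the Myog window holds the A/T-rich stretch ctatatttat, which is close to that motif. These are letters in a window and not measured binding.

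Per length, in RPKM (CPM divided by exon length in kilobases), the members differed by orders of magnitude. Pax3 (ENSMUSG00000004872, chromosome 1, 78101267 to 78197134, minus strand) had the highest median RPKM of the 8 over all 46 tumors, 27.02, with at least 1006 counts in every tumor. Pax7 (ENSMUSG00000028736, chromosome 4, 139737062 to 139833528, minus strand) followed with a median RPKM of 11.3 and at least 39 counts in every tumor. Both paired-box genes were thus counted in every tumor of every group.

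Msc (ENSMUSG00000025930, chromosome 1, 14753346 to 14755992, minus strand) had a median RPKM of 1.42. It lies within Gm9947 on the opposite strand, and the strand setting of the counting was not given in the sources used here, so reads of this pair could not be told apart with certainty. Gm9947 had 915 and Msc 2468 counts over the 37 hSS2 tumors.

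The median RPKM was 0.457 for Myf6, 0.354 for Myod1 (ENSMUSG00000009471, chromosome 7, 46376474 to 46379099), 0.158 for Myog (ENSMUSG00000026459, chromosome 1, 134289989 to 134292548), 0.113 for Mymk (ENSMUSG00000009214, chromosome 2, 27061636 to 27072179) and 0 for Myf5. Myf5 (ENSMUSG00000000435, chromosome 10, 107482908 to 107486134) and Myf6 (ENSMUSG00000035923, chromosome 10, 107492853 to 107494737) are neighbors on the minus strand, 6718 bases apart. These 5 genes had wide ranges. In the 37 hSS2 tumors the count of Myf6 ran from 0 to 563, that of Myod1 from 0 to 248 and that of Myog from 0 to 91, while Mymk reached 34 and Myf5 17. Myf5 was at 0 in 17 of the 37, a count that allows up to 3 reads, or 0.141 to 0.283 CPM at the depths of the hSS2 libraries. Counting error alone is covered by this limit.

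**Figure D1:**
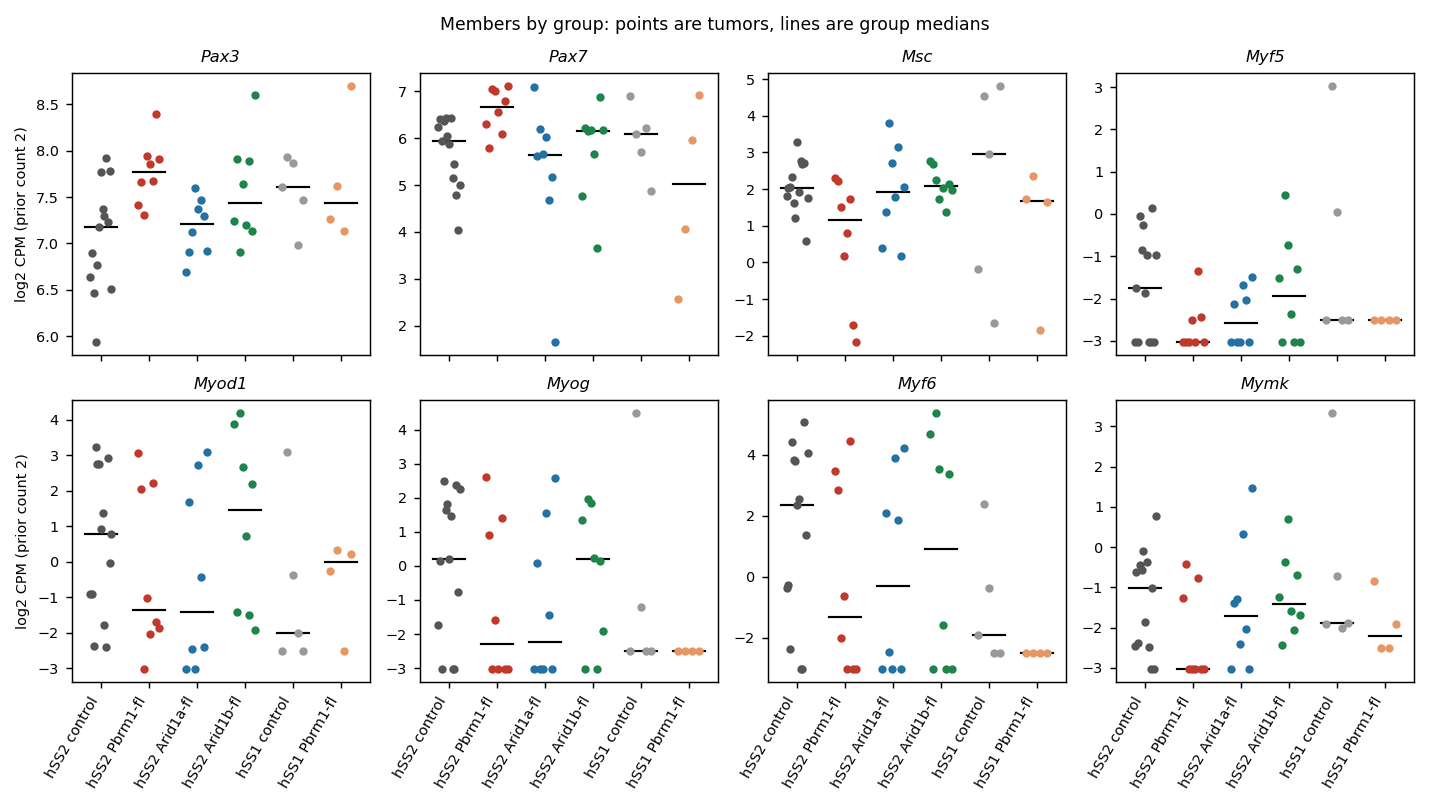
Level of each member (log2 CPM scaled by TMM, prior count 2) in the 6 groups, with 1 point per tumor and a line at each group median. Pax3 and Pax7 were counted in every tumor, whereas Myod1, Myog and Myf6 ran from the floor to high values within each hSS2 group. Myf5 and Mymk reached at most 17 and 34 counts in hSS2 tumors, and these 5 genes were scarce in hSS1 outside control replicate 2.

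Ttn, the giant spring protein of the sarcomere, was used to separate factors of progenitors from those of differentiated muscle, as the choice of genes asked. Across the 37 hSS2 tumors Ttn ran from 79 to 736612 counts, or from 2.23 to 15.76 in log2 CPM (TMM-scaled, prior count 2). A member was said to follow Ttn at a Pearson r of at least 0.5 in these log2 values. The r was 0.977 for Myf6, 0.930 for Myog, 0.922 for Myod1, 0.773 for Myf5 and 0.736 for Mymk, so these 5 of 8 members followed Ttn. The r was 0.309 for Msc, -0.161 for Pax7 and -0.380 for Pax3. Mymk was the nearest member above the threshold and Msc the nearest below it. Of all 20082 other genes that passed the filter on low counts, 9.99% reached 0.5. Myf5 and Mymk did not pass that filter, and of the 6 members that passed it 3 reached 0.5. The tumors share the depth and tissue makeup of their libraries in all these values, and since r made the classes, it is given without a test. In bulk tissue, fewer muscle cells and less RNA per muscle cell cannot be told apart.

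The same r was also read inside groups, as a description of the tumors that made the classes and not as support for them. Within hSS2 control tumors r was 0.990 for Myf6 and 0.958 for Myog, and across the 4 hSS2 groups Myf6 stayed between 0.953 and 0.990. Myf5 was the exception, with 0.361 in the Pbrm1-fl tumors, where its highest count was 4. Ttn had its widest gap between 9.08 and 11.33 in log2 CPM, with 18 tumors below and 19 above. On both sides of the gap r was over 0.5 for Myf6 (0.871 below and 0.874 above), Myog (0.725 and 0.691), Myod1 (0.527 and 0.766) and Myf5 (0.609 and 0.575). Mymk fell under the threshold on both sides, at 0.416 and 0.249. For Msc the r changed sign between groups, from -0.221 in control to 0.741 in Pbrm1-fl tumors, and for Pax7 it ran from -0.774 in Pbrm1-fl to 0.321 in Arid1b-fl tumors. The difference between these groups in r was not tested.

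The 9 hSS1 tumors took no part in this separation. In them r with Ttn was 0.902 for Myf5 (exact permutation p = 0.0139), 0.871 for Myf6 (exact p = 0.0139), 0.829 for Mymk (exact p = 0.00564), 0.826 for Myog (exact p = 0.0139) and 0.794 for Myod1 (exact p = 0.0129), over 8 relations, two-sided and unadjusted. It was 0.570 for Pax3 (exact p = 0.112), 0.525 for Msc (exact p = 0.144) and 0.257 for Pax7 (exact p = 0.517). By r, 7 of 8 members thus reached 0.5. Among the 17785 genes that passed the filter on low counts in hSS1, 8.51% did. Myf5, Myod1, Myog, Myf6 and Mymk did not pass it there, so the 2 shares are of unlike sets. Spearman's rho was lower, at 0.733 for Mymk (exact p = 0.0311), 0.564 for Myf5 and Myog (exact p = 0.119), 0.527 for Myod1 (exact p = 0.15) and 0.310 for Myf6 (exact p = 0.422). For the others rho was 0.433 for Pax3 (exact p = 0.25), 0.367 for Msc (exact p = 0.336) and 0.167 for Pax7 (exact p = 0.678). Without the 2 tumors farthest from the median of Ttn, r of the 7 left was -0.431 for Myf6, -0.192 for Myog and for Myf5, 0.152 for Mymk and 0.564 for Myod1. The hSS1 relations of Myf5, Myog, Myf6 and Mymk therefore rested on those 2 tumors. Myf5 and Myog were at 0 counts in 7 of the 9 hSS1 tumors, and Myf6 in 6. Since r with Ttn is the measure that made the classes, these hSS1 values describe the tumors and are not support for the classes.

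**Figure D2:**
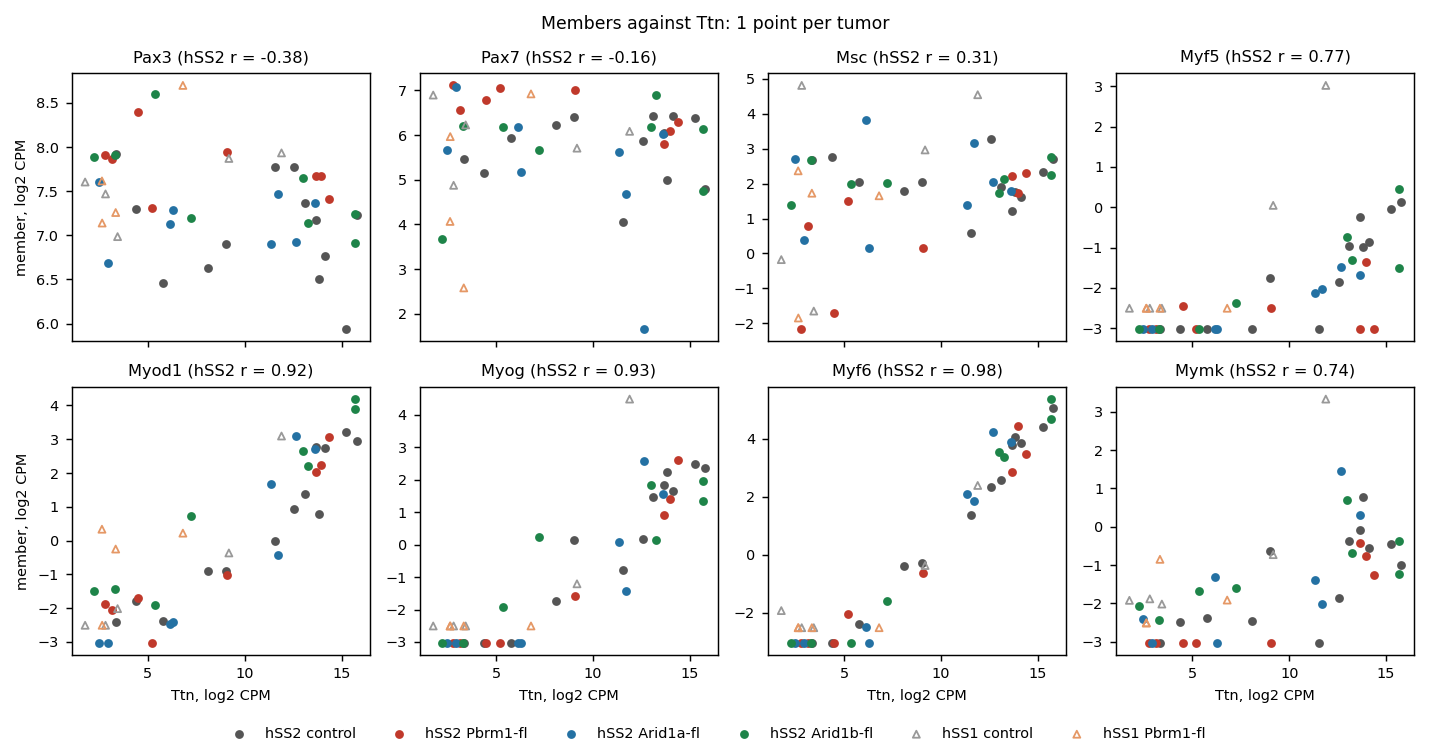
Each member against Ttn in 46 tumors (both axes log2 CPM, TMM-scaled within each count table, prior count 2), with filled points for hSS2 and open triangles for hSS1. Myf6, Myog and Myod1 climb with Ttn, whereas Pax3 and Pax7 spread over all Ttn levels and Msc climbs little (r printed above each panel, 37 hSS2 tumors).

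Members that follow Ttn closely in the same tumors must also go together, so r between them is only described. Across the 37 hSS2 tumors r was 0.945 between Myod1 and Myf6, 0.944 between Myog and Myf6 and 0.942 between Myod1 and Myog. For Pax3 and Pax7 it was 0.054, so the 2 paired-box genes varied almost without relation to each other.

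For each member the 4 genes most like it by r over these tumors were taken, out of 17285 genes with a symbol and a mean of at least 1 CPM. For Myf6 they were Sgca, Mylpf, Scn4a and Mypn (r of 0.985 to 0.988), genes of the muscle fiber membrane and sarcomere. For Myog they were Chrna1 (0.979), a subunit of the acetylcholine receptor, the embryonic myosin gene Myh3 (0.953), Des (0.947) and Hfe2 (0.945). For Myod1 they were Ppp1r27 (0.957), Klhl30, Jph2 and Gm29773. Mymk was most like Myh3 (0.872), Myog (0.850), Chrna1 and Igfn1, and Myf5 was most like Gbp10 (0.843), Gm28653, Tceal7 and Hectd2os. For Msc they were its overlapping neighbor Gm9947 (0.846) and the matrix genes Loxl1 (0.812), Sparc (0.804) and Timp2 (0.775). Pax7 was most like Adcy8 (0.848), Celsr1 (0.823), Lhx1 (0.818) and Pard6b (0.817). Pax3 had lower values, with Rnf182 (0.734), Pdcl (0.706), Trpt1 (0.700) and Atf7ip (0.690). The genes most like Pax3 and Pax7 thus held no sarcomere gene. Those most like Msc and Myf5 held none either, so this does not set Pax3 and Pax7 apart.

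Disruption of Pbrm1, a subunit of the PBAF complex, was compared with control in hSS2 tumors. In Pbrm1-fl tumors the Pax3 level was 165, 203, 160.0, 255, 248, 199, 343 and 245 CPM in replicates 1 to 8. Control tumors had 57.1 CPM at the lowest, 128 at the median and 248 at the highest. All 8 Pbrm1-fl tumors lay above the control median, yet the ranges overlapped. The log2 fold change of Pax3 was 0.64 (SE 0.21, edgeR adjusted p = 0.0558), just short of the threshold of 0.05.

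Pax7 was at 76.2, 55.5, 134, 134, 100.4, 66.5, 113 and 141 CPM in the same Pbrm1-fl tumors. In control tumors it ran from 16.8 over a median of 64.0 to 89.1 CPM. Its log2 fold change was 0.80 (SE 0.37, edgeR adjusted p = 0.199), with 7 of 8 Pbrm1-fl tumors above the control median and the ranges overlapping.

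Msc was lower in most Pbrm1-fl tumors, at 4.62, 4.56, 2.73, 1.03, 1.72, 3.13, 0.188 and 0.102 CPM, against 1.42 at the lowest, 4.19 at the median and 9.67 at the highest in control tumors. The log2 fold change was -1.0 (SE 0.48, edgeR adjusted p = 0.213), and replicates 7 and 8, with the lowest values, had 3 counts or fewer. For Myod1, Myog and Myf6 the log2 fold changes were -0.43, -0.69 and -0.80, each with an SE over 1. In both groups each of these 3 genes ran from at most 1 count to at least 62 counts. Myf5 and Mymk did not pass the filter on low counts, with medians of 3 and 5 counts in control and 0 and 0 in Pbrm1-fl tumors.

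In all, edgeR called 0 of the 6 members tested between hSS2 Pbrm1-fl and control tumors, beside 7.35% of the 20083 genes tested. Of the 6, Pax3, Pax7 and Msc had an unadjusted p under 0.05. DESeq2 called 1 member, Pax3, at a log2 fold change of 0.62 (adjusted p = 0.045), beside 8.78% of its genes. With log2 Ttn as a covariate, edgeR gave Pax3 0.54 (adjusted p = 0.0898). Leaving out 1 tumor at a time moved Pax3 between 0.54 and 0.73, with adjusted p from 0.0277 to 0.153, and edgeR called it in 4 of 21 such fits: without Pbrm1-fl replicate 1 or control replicate 7, 10 or 12.

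Pax3 and Pax7 also varied with the mouse number range. All Pbrm1-fl mice were numbered 2000 or over, and the 4 control tumors of that range had 98.0, 125, 92.7 and 57.1 CPM of Pax3. These values lie below all 8 Pbrm1-fl tumors, with no overlap, and 0.971% of genes were higher with no overlap in the same way (0.767% were lower). Against these 4 alone, the log2 fold change of Pax3 was 1.28 (edgeR adjusted p = 0.00921), a call beside 2.47% of the genes tested. The other control tumors had 87.2 to 248 CPM when numbered under 1000 and 105 to 221 CPM when numbered 1000 to under 2000. Mouse number range and Pbrm1 genotype cannot be told apart outside this range.

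Pax7 went the other way, since it was lowest in the control tumors numbered under 1000. These 5 tumors had 37.8, 44.9, 23.5, 16.8 and 30.5 CPM, and the other 8 control tumors had 58.9 to 89.1 CPM. The 2 sets of control tumors did not overlap for Pax7, and 0.443% of genes were lower in the first set with no overlap. Against the control tumors of its own range, Pbrm1-fl had a Pax7 log2 fold change of 0.41 (edgeR adjusted p = 0.815), and for Msc the value was -0.85 (edgeR adjusted p = 0.62).

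**Figure D3:**
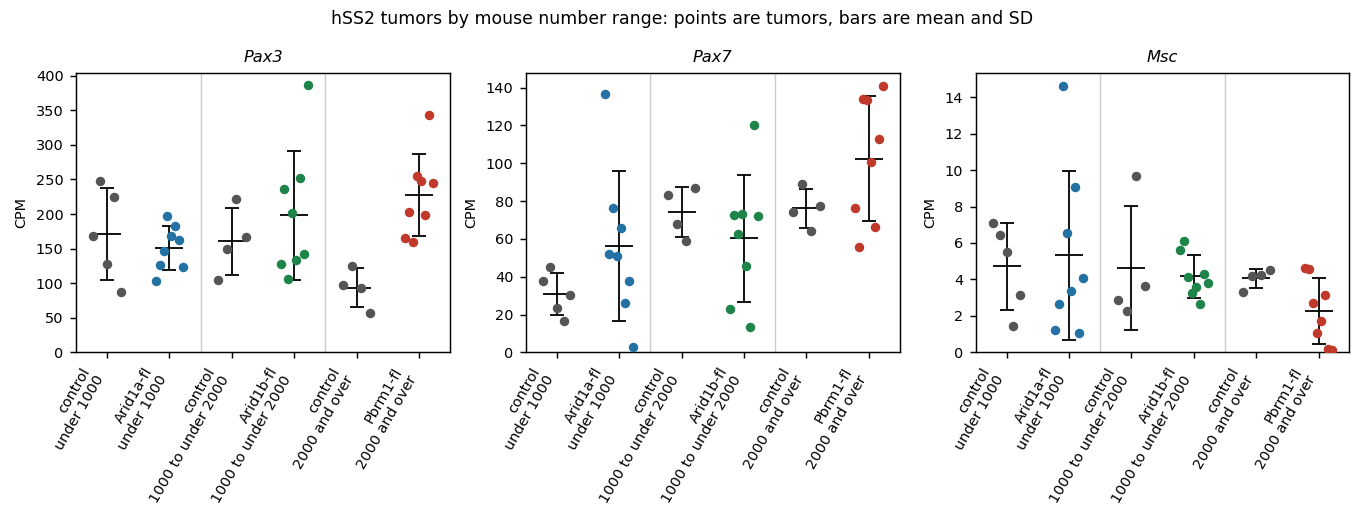
Level of Pax3, Pax7 and Msc (CPM, axis from 0) in hSS2 tumors arranged by mouse number range, with 1 point per tumor and bars for mean and SD. For Pax3 the 8 Pbrm1-fl tumors all lie above the 4 control tumors numbered 2000 and over, and for Pax7 the 5 control tumors numbered under 1000 lie below all other control tumors.

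Markers of other cells were read beside Pax3. The 20 genes of a mature muscle fiber list summed to 114 to 104800 CPM in hSS2 control and to 21.7 to 42280 CPM in Pbrm1-fl tumors. Since Pax3 also acts in neural crest, a list of 8 neural crest, Schwann cell and melanocyte genes was summed, and it gave 20.4 to 46.96 CPM in control and 17.3 to 54.55 CPM in Pbrm1-fl tumors. Of that list, Tyrp1 had a median of 0 in all 6 groups, and Sox10 had medians of 0.103 CPM in control and 0.031 CPM in Pbrm1-fl tumors. The part of these cells in the Pax3 values was not tested.

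Disruption of Arid1a, a subunit of canonical BAF, was compared in the same way. Pax3 ran from 104 over a median of 155 to 197 CPM in Arid1a-fl tumors, inside the control range, and its log2 fold change was 0.04 (95% interval -0.38 to 0.46). Pax7 was at 137 CPM in the highest and at 3.08 CPM in the lowest Arid1a-fl tumor, with a log2 fold change of -0.08 (95% interval -0.83 to 0.66). Against the 5 control tumors of the same mouse number range the Pax7 value turned to 0.82 (edgeR adjusted p = 0.264), those being the tumors with the lower Pax7 levels, and none of the members was called, beside 6.8% of genes. Msc had a log2 fold change of 0.19 (95% interval -0.71 to 1.09).

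Myod1, Myog and Myf6 had values of -0.32, -0.76 and -0.77 in Arid1a-fl tumors, with intervals wider than 4 log2 units. For Myf6 this was a median count of 29 in Arid1a-fl and of 89 in control tumors, and 4 of 8 Arid1a-fl tumors had 3 counts or fewer. None of the 6 members tested was called by edgeR or DESeq2, beside 3.17% and 7.6% of genes, and none had an unadjusted p under 0.05. Without the library labelled hSS2 control replicate 9 the log2 fold changes were 0.05 for Pax3, -0.11 for Pax7, 0.26 for Msc, -0.42 for Myod1, -0.87 for Myog and -0.88 for Myf6.

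In Arid1b-fl tumors, Arid1b being the alternative subunit to Arid1a, Pax3 ran from 106 over a median of 172 to 387 CPM. Its log2 fold change was 0.50 (SE 0.21, unadjusted p = 0.0234 and adjusted p = 0.745 in edgeR), and without replicate 8, the highest tumor, 0.28. Myod1 had the value farthest above 0, at 0.97 (SE 0.998), with a median of 42.5 counts against 29 in control tumors and the highest level of all 46 tumors, 15.95 CPM, in replicate 3. Pax7 and Msc had 0.10 and -0.03, Myf6 0.34 and Myog -0.49. Leaving out the library labelled Arid1b-fl replicate 4 gave log2 fold changes of 0.51 for Pax3, 0.065 for Pax7, 0.95 for Myod1, -0.80 for Myog, 0.33 for Myf6 and 0.021 for Msc, and without replicate 3 Myod1 had 0.42. Again 0 of 6 members were called by edgeR or DESeq2, in a comparison that called 0.0548% and 0.0603% of genes.

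**Figure D4:**
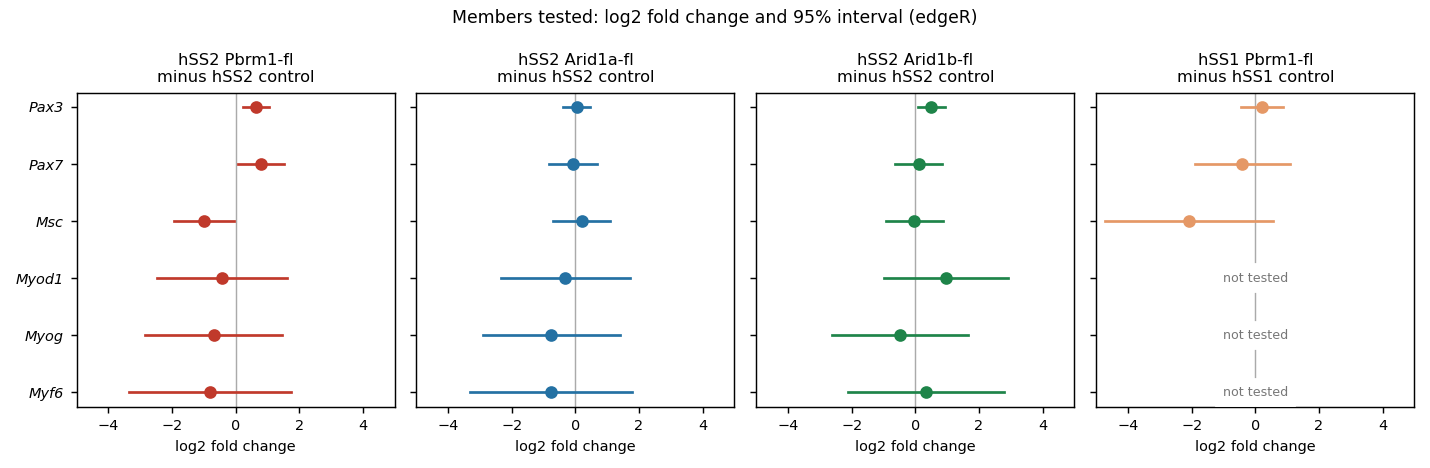
Log2 fold change (point) and 95% interval (line) of each member tested by edgeR, for the 3 hSS2 comparisons with control and the hSS1 comparison. Intervals of Pax3 are narrow and those of Myod1, Myog and Myf6 span several log2 units, and in hSS1 only Pax3, Pax7 and Msc passed the filter.

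Among the floxed groups, the order of Pax3 by fitted level was Pbrm1-fl, Arid1b-fl, Arid1a-fl and control. On the log2 scale Pbrm1-fl exceeded Arid1b-fl by 0.14, Arid1a-fl minus Arid1b-fl was -0.47 and Arid1a-fl exceeded control by 0.04, and none of these differences between neighbors passed the test. Pbrm1-fl minus Arid1a-fl gave 0.61 for Pax3 (edgeR adjusted p = 0.0914), 0.88 for Pax7 (adjusted p = 0.178) and -1.19 for Msc (adjusted p = 0.134). These 3 members had an unadjusted p under 0.05, and edgeR and DESeq2 called none of 6, beside 12.3% and 12.6% of genes. When each group was first set against the controls of its own mouse number range, the difference for Pax3 was 1.51 (edgeR adjusted p = 0.0264), a call beside 2.18% of genes, and that for Pax7 turned to -0.41 (adjusted p = 0.768).

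Pbrm1-fl minus Arid1b-fl and Arid1a-fl minus Arid1b-fl called no member by either tool, beside 4.37% and 0.0996% of genes in edgeR and 6.06% and 0.885% in DESeq2, and no member had an unadjusted p under 0.05. With controls of the same range, Pbrm1-fl minus Arid1b-fl again called none of the members, beside 0.273% of genes. Pax7 minus its Arid1b-fl level was 0.70 in Pbrm1-fl and -0.18 in Arid1a-fl tumors on the log2 scale. All comparisons with control share the same 13 tumors.

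In hSS1, Pax3 was at 195, 248, 237, 125 and 169 CPM in control replicates 1 to 5. In Pbrm1-fl replicates 1 to 4 it was at 157, 196, 136 and 412 CPM. Only replicate 4 exceeded the control range, and the log2 fold change was 0.21 (SE 0.34, edgeR adjusted p = 0.784), which turned to -0.24 without that tumor.

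Pax7 was at 120, 68.6, 52.8, 74.0 and 27.9 CPM in hSS1 control and at 5.95, 16.6, 60.3 and 120 CPM in hSS1 Pbrm1-fl tumors. Its log2 fold change was -0.41 (SE 0.76, edgeR adjusted p = 0.817), and Pbrm1-fl replicates 1 and 2 lay below all control tumors while replicates 3 and 4 had levels like those of control tumors. Msc was at 0.713, 23.5, 7.74, 0.142 and 26.7 CPM in control and at 3.22, 4.99, 0.0986 and 2.94 CPM in Pbrm1-fl tumors. Its log2 fold change was -2.08 (SE 1.35, edgeR adjusted p = 0.451), with control tumors on both sides of 3 of the 4 Pbrm1-fl values.

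The other members were scarce in hSS1. Myf5, Myog and Myf6 were at 0 counts in all 4 Pbrm1-fl tumors, which allows up to 3 counts in each. In control tumors Myog was at 0, 277, 3, 0 and 0 counts, Myf6 at 1, 63, 7, 0 and 0 counts and Myf5 at 0, 99, 10, 0 and 0 counts, so replicate 2 held most of the counts of each. Mymk was at 1, 123, 5, 1 and 1 counts in control and at 4, 0, 0 and 1 in Pbrm1-fl tumors. Myod1 was at 0, 104, 7, 1 and 0 counts in control and at 7, 12, 0 and 11 counts in Pbrm1-fl tumors. Only Pax3, Pax7 and Msc passed the filter, and neither edgeR nor DESeq2 called any of these 3, beside 0.00562% and 6.27% of genes, with no unadjusted p under 0.05.

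The Pbrm1 effect in hSS1 minus that in hSS2 was tested over all 46 tumors, with 8 members passing the filter. It was -0.43 for Pax3 (edgeR adjusted p = 0.579), -1.22 for Pax7 (adjusted p = 0.391) and -1.08 for Msc (adjusted p = 0.604) on the log2 scale. The loss of Pbrm1 itself was unlike in the 2 backgrounds, with medians of 219.5 CPM in hSS1 and 99.5 CPM in hSS2 Pbrm1-fl tumors. No member was called by edgeR, beside 2.86% of genes, and 1, Myog, had an unadjusted p under 0.05. DESeq2 called Myog (adjusted p = 7.12e-12), beside 4.85% of genes. All hSS1 Pbrm1-fl tumors were at 0 for Myog, so the counts set no finite fold, and the DESeq2 p-value rests on that fit. No fold is given for Myog, and most of its hSS1 control counts were in 1 tumor.

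That tumor, hSS1 control replicate 2, stood apart in its muscle transcripts relative to Ckm. Ratios of counts to those of Ckm, the creatine kinase of mature muscle, were taken after its values were seen, in the 28 tumors with at least 100 Ckm counts. Per 1000 Ckm counts it had 885 counts of Myog, where the other 27 tumors had a median of 3.01 and a highest value of 147. It had 393 of Mymk (highest of the others 48.5), 316 of Myf5 (16.5), 332 of Myod1 (216) and 201 of Myf6 (39.2). All 5 members that followed Ttn were thus higher relative to Ckm in this tumor than in any other. Relative to Ttn, at 46994 counts here, only Myf5 was the highest of the 28. With 2136 Ttn counts, hSS2 Arid1b-fl replicate 5 had 15 of Myog and 22 of Myod1, against 277 and 104 here. Myf6 had 240 at 82824 Ttn counts in hSS2 Arid1a-fl replicate 8, against 63 here. Mymk had 5 at 1245 Ttn counts in hSS2 Arid1a-fl replicate 3, against 123 here. Msc, at 920 per 1000 Ckm counts, lay inside the range of the others, which reached 2388.

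The same tumor had 8406 counts of embryonic myosin Myh3 per 1000 Ckm counts (highest of the others 265) and 14280 of perinatal myosin Myh8 (104). The excess over Ckm was not limited to early genes, since Ttn was at 150100 (highest of the others 31340) and Acta1, the actin of muscle fibers, at 14650 (3591). Myh4, an adult fast myosin, was at 1799, within the 1381 to 4459 of the others. The Ckm count of this tumor, by which all its ratios were divided, was 313, and its Ttn count was 46994.

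**Figure D5:**
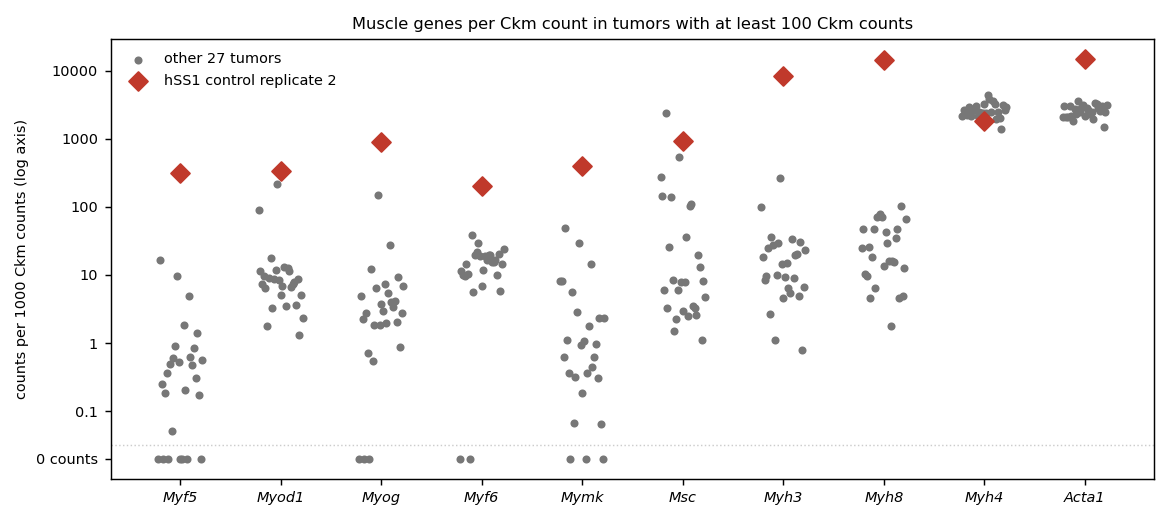
Counts of 6 members and 4 muscle genes per 1000 Ckm counts (log axis, with tumors at 0 below the dotted line) in the 28 tumors with at least 100 Ckm counts. The red diamond, hSS1 control replicate 2, lies above all other tumors for Myf5, Myod1, Myog, Myf6, Mymk, Myh3, Myh8 and Acta1, and within them for Msc and Myh4.

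Around the members, 5 lists of genes of the same pathway were read. With Ttn, 19 of the 20 mature muscle fiber genes, Ttn itself among them, had an r of at least 0.5 (median 0.988), as did 13 of 19 early differentiation genes that passed the filter, 7 of 22 other progenitor factors, 2 of 16 inhibitors of myogenic factors and 2 of 7 bHLH partners and MEF2 genes. Of all 20082 other genes that passed the filter, 9.99% did, which is near the share of the inhibitors.

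Between hSS2 Pbrm1-fl and control tumors, where 7.35% of all genes were called, none of the 20 fiber genes, 19 early differentiation genes or 7 partners was. The fiber genes had a median log2 fold change of -0.88, beside -0.004 over all genes. Of 22 progenitor factors, 1 was lower: Megf10, a receptor found on satellite cells, at -3.02 (edgeR adjusted p = 0.0075). Of 16 inhibitors, 2 were higher and 1 lower. Twist1, a bHLH factor that can block Myod1, was at 1.19 (edgeR adjusted p = 0.00109), the Notch target Hes1 at 0.65 (adjusted p = 0.0296) and Zeb1 at -0.55 (adjusted p = 0.0263). Against the control tumors of the same mouse number range 2.47% of genes were called. Megf10 and Twist1 passed the test there at -3.94 and 1.59 (edgeR adjusted p = 0.00495 and 0.00699), whereas Hes1 and Zeb1 had 0.68 and -0.43 (adjusted p = 0.189 and 0.349).

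Between Arid1a-fl and control tumors 3.17% of all genes were called. Of 16 inhibitors, 2 were higher, Twist2 at 2.76 (edgeR adjusted p = 0.028) and Snai2 at 1.42 (adjusted p = 0.0413). Another 2 were lower, Bhlhe41 at -1.34 (edgeR adjusted p = 0.0442) and Mdfic at -0.68 (adjusted p = 0.0477). Of 19 early differentiation genes, 2 were lower: the acetylcholine receptor subunit gene Chrnb1 at -1.21 (edgeR adjusted p = 0.0156) and the growth factor gene Igf2 at -1.86 (adjusted p = 0.038). No progenitor factor, partner or fiber gene was called, and the fiber genes had a median of -1.46, beside -0.04 over all genes. Against the controls of the same range, where 6.8% of genes were called, Twist2, Bhlhe41 and Igf2 passed the test (edgeR adjusted p = 0.0485, 0.0105 and 0.0375). The progenitor factor Spry1, not called against all controls, also passed it there, at -1.11 (edgeR adjusted p = 0.0443). Snai2, Mdfic and Chrnb1 did not (edgeR adjusted p = 0.191, 0.0694 and 0.0618). Arid1b-fl and hSS1 Pbrm1-fl called no gene of the 5 lists against their controls, beside 0.0548% and 0.00562% of all genes. Pbrm1-fl against Arid1a-fl, where 12.3% of all genes were called, called 4 of 22 progenitor factors, with Eya2 (2.29), Tbx1 (2.16) and Sdc4 (2.04) higher and Six4 (-1.40) lower in Pbrm1-fl (edgeR adjusted p = 0.00896, 0.0272, 0.0119 and 0.0375). Of the 16 inhibitors, Twist1 (1.26) was higher and Snai2 (-2.43) and Zeb1 (-0.74) were lower, and of 19 early differentiation genes Igf2 (2.62) and Chrnb1 (0.91) were higher and Ncam1 (-1.20) lower.

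Of these 10 genes, Twist1 alone passed the test when both groups were set against controls of their own mouse number range, at 1.64 (edgeR adjusted p = 0.0371), beside 2.18% of all genes. There Eya2 had 2.74, Tbx1 2.03, Sdc4 2.78 and Igf2 3.04 (adjusted p = 0.12, 0.295, 0.0863 and 0.0599), and Six4 turned to 1.35 (adjusted p = 0.161). Snai2 had -0.76, Zeb1 -0.55, Chrnb1 0.19 and Ncam1 -0.087 (edgeR adjusted p = 0.558, 0.287, 0.852 and 0.944). Against Arid1b-fl tumors, Pbrm1-fl tumors had 1 called gene of the 5 lists, Twist1 at 0.99 (edgeR adjusted p = 0.0222), beside 4.37% of all genes. With controls of the same range Twist1 had 1.71 (edgeR adjusted p = 0.0904) and was not called.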

How the data were processed

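The values were raw read counts per Ensembl gene, deposited by the authors as 1 table of 37 hSS2 libraries and 1 of 9 hSS1 libraries. Per the study's methods and the submitters' processing notes, libraries were stranded and depleted of ribosomal RNA, STAR 2.7.11 mapped the reads to mm10 and featureCounts 1.6.3 counted them; the annotation release and strand setting were not given in the sources used here. Symbols, positions and union exon lengths came from GENCODE M21 (GRCm38), and promoters from RefSeq.

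Counts were filtered with filterByExpr, scaled by TMM and fitted in edgeR 4.0.16 (R 4.3.3) with robust quasi-likelihood dispersions, 1 fit per table and 1 of all 46 libraries for the difference between backgrounds. Tests were two-sided, with Benjamini-Hochberg adjustment over all genes tested and a threshold of 0.05. DESeq2 1.42.0, other scalings, no filter, Ttn as a covariate, controls of the same mouse number range and leaving out each tumor were alternatives. The code was tested on simulated data. CPM used library totals, and r used log2 CPM with a prior count of 2. Depth was 10137668 to 21294657 counts, so that 3 counts equal 0.141 to 0.296 CPM. The study used littermates as controls, but which tumors share a litter was not given in the sources used here, so litter was not fitted and p-values measure the spread between these tumors. The members, gene lists, similarity rule (the 4 genes with the highest r among those with a symbol and a mean of at least 1 CPM; of the lists, genes past the threshold) and tests were chosen with earlier results of these data known.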

Additional observations from a re-analysis of the deposited data

Results flagged for a closer look

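Tumors far from the others of their group were sought in 27 sets of values, 1 for each member and group with 4 to 10 tumors and with enough counts, by the gap to the nearest tumor over the range of the group. Chance alone marks about 1 in 20 such sets, and 2 were marked. For Pax7 the lowest hSS2 Arid1a-fl tumor, replicate 8, had 3.08 CPM, and its gap was 0.556 of the range of the 8 tumors (on the log2 scale). For Msc the lowest hSS1 Pbrm1-fl tumor, replicate 3, had 0.0986 CPM, a single count, and its gap was 0.831 of the range of the 4 tumors. This tumor also had the lowest Pbrm1 level of its group, 98.3 CPM. Without Arid1a-fl replicate 8 the Pax7 log2 fold change against hSS2 control was 0.10, and it was not called with or without that tumor.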

How the results depend on the processing

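No paired analysis was possible because the replicate numbers were given in accession order within a group, and which tumors share a litter was not given in the sources used here. Members called stayed at 0 in all comparisons under the alternatives, with these exceptions: Pax3 was the 1 member called in hSS2 Pbrm1-fl minus hSS2 control within the same mouse number range (log2 fold change 1.28) and under DESeq2 (0.62), the 1 in hSS2 Pbrm1-fl minus hSS2 Arid1a-fl within range (1.51), and Myog was the 1 in the Pbrm1-fl effect, hSS1 minus hSS2, under DESeq2. When leaving out 1 tumor, 0 to 1 member was called in hSS2 Pbrm1-fl minus hSS2 control, with Pax3 called without Pbrm1-fl replicate 1 (0.68) or without control replicate 7 (0.71), 10 (0.73) or 12 (0.71). The cause of these moves was not tested. In hSS2 tumors 5 members followed Ttn under each alternative; in hSS1 tumors 7 did, 4 by Spearman's rho, and 6 to 7 with Ckm in place of Ttn, with values centred on group means or when leaving out 1 tumor.

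Counts of genes called moved by over 1.5 times under the alternatives named below. Ranges when leaving out 1 tumor are given beside them, also where they moved less. For hSS2 Pbrm1-fl minus hSS2 control (1476) they were 526 within range and 2282 under DESeq2, and 1044 to 1920 when leaving out 1 tumor. For hSS2 Arid1a-fl minus hSS2 control (637) they were 243 with no filter, 388 with Ttn as a covariate, 1446 within range, 1740 under DESeq2, and 56 (without Arid1a-fl replicate 8) to 1416 (without Arid1a-fl replicate 6) when leaving out 1 tumor. For hSS2 Arid1b-fl minus hSS2 control (11) they were 27 with no filter, 0 within range, 18 under DESeq2 and 6 to 15 when leaving out 1 tumor. For hSS2 Pbrm1-fl minus hSS2 Arid1a-fl (2468) they were 463 within range and 1902 to 2585 when leaving out 1 tumor. For hSS2 Pbrm1-fl minus hSS2 Arid1b-fl (878) they were 58 within range, 1575 under DESeq2 and 574 to 1249. For hSS2 Arid1a-fl minus hSS2 Arid1b-fl (20) they were 39 without TMM, 0 within range, 223 under DESeq2 and 15 to 76. For hSS1 Pbrm1-fl minus hSS1 control (1) they were 0 without TMM, 1244 under DESeq2 and 0 to 4. For the Pbrm1-fl effect, hSS1 minus hSS2 (622), they were 402 with no filter, 6 with hSS2 tumors numbered 2000 and over, 1160 under DESeq2 and 235 to 876.

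Log2 fold changes of uncalled members that changed sign were as follows. With Ttn as a covariate, Myod1 was 0.34 in hSS2 Pbrm1-fl minus hSS2 control, Pax3 -0.044, Myod1 0.49, Myog 0.11 and Myf6 0.62 in hSS2 Arid1a-fl minus hSS2 control, Myog 0.48 in hSS2 Arid1b-fl minus hSS2 control, Myog -0.44 in hSS2 Pbrm1-fl minus hSS2 Arid1a-fl, Myf6 0.58 in hSS2 Arid1a-fl minus hSS2 Arid1b-fl, and Myod1 1.79 in the Pbrm1-fl effect, hSS1 minus hSS2. Within range, Pax3 was -0.22, Pax7 0.82 and Myod1 0.21 in hSS2 Arid1a-fl minus hSS2 control, Pax7 -0.25 in hSS2 Arid1b-fl minus hSS2 control, Pax7 -0.41 and Myf6 0.85 in hSS2 Pbrm1-fl minus hSS2 Arid1a-fl, Myog 0.38 in hSS2 Pbrm1-fl minus hSS2 Arid1b-fl, and Pax7 1.08 and Myog 0.062 in hSS2 Arid1a-fl minus hSS2 Arid1b-fl.

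When leaving out 1 tumor, Pax3 ran from -0.031 to 0.12, Pax7 from -0.42 to 0.10 and Msc from -0.21 to 0.35 in hSS2 Arid1a-fl minus hSS2 control, and Pax7 from -0.10 to 0.26, Myf6 from -0.39 to 0.71 and Msc from -0.15 to 0.11 in hSS2 Arid1b-fl minus hSS2 control. In hSS2 Pbrm1-fl minus hSS2 Arid1a-fl, Myod1 ran from -0.84 to 0.55, Myog from -0.96 to 1.15 and Myf6 from -0.96 to 0.66, and in hSS2 Pbrm1-fl minus hSS2 Arid1b-fl Myog ran from -1.19 to 0.16. In hSS2 Arid1a-fl minus hSS2 Arid1b-fl, Pax7 ran from -0.53 to 0.016, Myog from -1.35 to 0.13 and Msc from -0.18 to 0.38. In hSS1 Pbrm1-fl minus hSS1 control, Pax3 ran from -0.24 to 0.40, and in the Pbrm1-fl effect, hSS1 minus hSS2, Myod1 ran from -1.25 to 2.43 and Mymk from -4.44 to 0.81, with the highest values in the absence of hSS1 control replicate 2. The low counts of Myf5 and Mymk limit their comparisons.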
